A study of Arabidopsis thaliana with 24 samples.

Results

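The genes described here are those whose transcripts were high in salt-treated Arabidopsis shoots at 6 and 12 h and low at 0.5, 1 and 24 h. They were chosen by a score computed from the shoot arrays. Each probe set's signal was put on the scale log2(signal + 2.2) and averaged over the 2 arrays of a group, and the score was the lower of the 6 and 12 h means minus the highest of the 0.5, 1 and 24 h means. The 100 highest scores were taken among 6925 probe sets that carried a single gene known by a locus code and reached a signal of 42 in at least 2 arrays. The array held 22810 probe sets in all. The 100 probe sets covered 98 genes, since AT4G17140 and AT1G10090 each had 2 among them. All 100 were matched in the RefSeq gene table, where each also carried only its locus code, so the members are named by that code and no function is given for any of them.

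The plants were of Col-0, the standard laboratory accession, and were grown in a growth room on rafts over Murashige and Skoog medium with 16 h of light a day. Salt was given to all of them at day 16, after 3 h of light, by lifting the raft and stirring NaCl into the medium to 150 mM. Roots and shoots were sampled 0.5, 1, 3, 6, 12 and 24 h later, which gave 12 groups of 2 arrays and 24 arrays in all. No sample of untreated plants was analysed here, so time after salt and time of day cannot be told apart.

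By the labels' light schedule the 6 h samples fell 9 h into the light and the 12 h samples 15 h into it, near the end of the day. The 24 h samples fell 3 h into the light of the next day, close to the 3.5 h of the 0.5 h samples. A daily rhythm and a transient response to salt would therefore both place a peak at 6 or 12 h.

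Plants time much of their transcription with a circadian clock, in which proteins made in the morning and proteins made in the evening repress each other's genes. Many shoot transcripts rise in the afternoon under its control and under that of light and sugars, among them genes for breaking down starch at night. Salt deprives roots and shoots of water and raises abscisic acid, a hormone that switches on protective genes, many of which also respond to cold and several of which are clock controlled.

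The deposited values are signals on a linear scale, scaled to 1 trimmed mean on every array. The median signal per array was 37.2 to 42.1 in shoots and 42 to 47.2 in roots. Tissue identity was checked with marker genes. All 4 measured shoot markers were lower in roots at 3 h, among them PRK and RCA, which act in carbon fixation, by log2 differences of -7.89 ± 0.31 (SE) and -6.04 ± 0.20. Of 3 measured root markers, PYK10, a beta-glucosidase of root cells, was higher in roots by 2.05 ± 0.33, while the root hair expansins EXPA7 and EXPA18 did not pass the test. The 2 arrays of a group correlated at r = 0.961 to 0.984 over 15170 probe sets in 11 groups, but at 0.857 in roots at 12 h, where the pair disagreed by 2-fold or more for 2902 probe sets (19.1%), 28 of the members among them. Root values at 12 h are given with each of these arrays left out wherever that ends a call. Whether paired arrays stem from separate cultures is not stated, so the tests gauge only how far arrays of a group lie apart, which may be technical spread. The fit takes 1 spread per probe set over all groups. Standard errors and adjusted p for roots at 12 h therefore do not reflect the wider spread of that pair alone. In whole roots or shoots, fewer cells of a type and less RNA per cell cannot be told apart.

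The shoot values at 0.5, 1, 6, 12 and 24 h chose the members and are given as a description. AT1G11210 had the highest score, 4.54. Its shoot signals were 2.73/1.02 at 0.5 h (first/second array), 3.21/4.31 at 1 h, 166/107 at 3 h, 307/254 at 6 h, 103/215 at 12 h, and 5.57/3.27 at 24 h. The 4 arrays of 6 and 12 h thus stood far above the 6 of the early and next-morning times, and the 3 h arrays lay with the former. AT4G33980, second with a score of 3.66, kept to 4.46 or less on all shoot arrays of 0.5, 1, 3 and 24 h. It read 53.4/38.1 at 6 h and 71.0/101.3 at 12 h. Unlike AT1G11210 it showed no rise by 3 h.

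AT4G16146 went from 18.2/19.3 at 0.5 h to 173/127 at 3 h, 397/342 at 6 h, 316/341 at 12 h, and back to 15.0/20.2 at 24 h. AT1G56300 went from 16.6/15.5 at 0.5 h to 214/193 at 3 h, 641/584 at 6 h, then to 319/211 at 12 h and 11.2/18.2 at 24 h. Both were already high at 3 h and were back at 24 h to within a few signal units of 0.5 h. AT1G07050 was late: its signals were 9.22 or less at 0.5, 1, 3 and 24 h, and were 93.1/91.1 at 6 h and 118/214 at 12 h. AT4G34950 had the same late course at a higher level, with 32.8/27.9 at 3 h, 553/613 at 6 h, 1340.0/644 at 12 h, and 54.1/87.3 at 24 h. In both, the 3 h arrays lay among those of 0.5 and 1 h or below them.

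**Figure D1:**
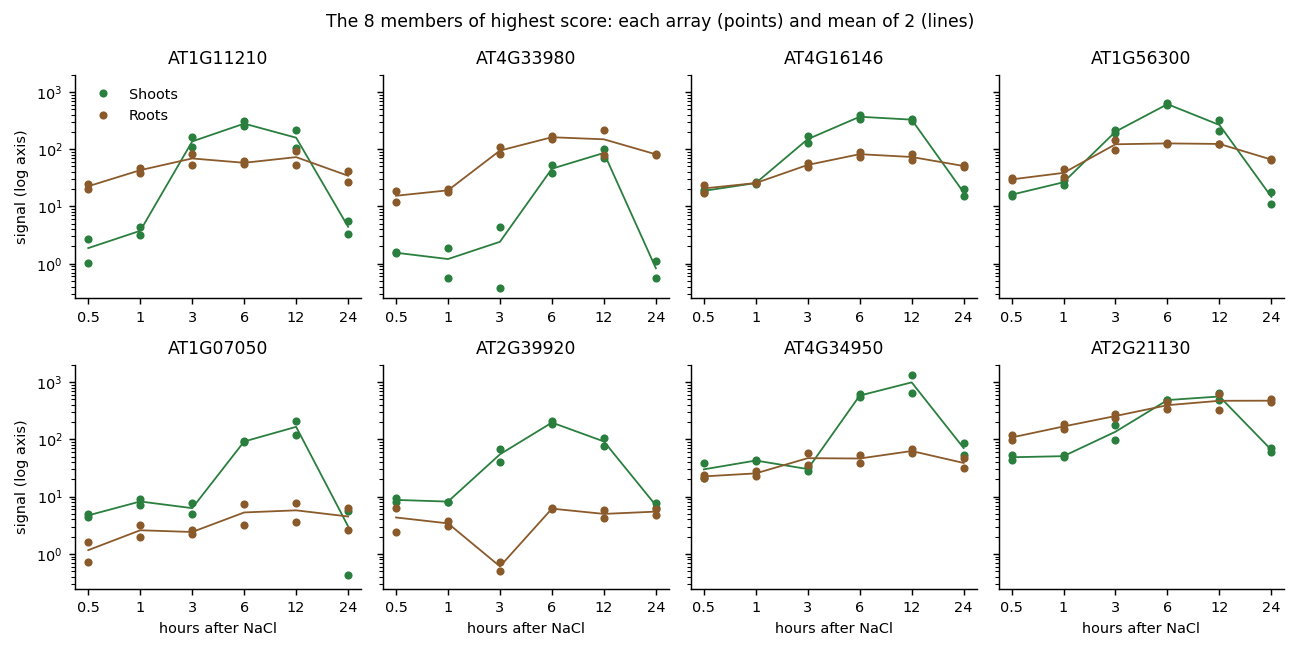
Shoot (green) and root (brown) signals of the 8 members of highest score, on a log axis, against hours after NaCl, evenly spaced; each point is 1 array and each line joins the means of 2. The shoot points of 6 and 12 h stand above those of 0.5, 1 and 24 h, while the root courses differ from gene to gene and stay below 10 in AT1G07050 and AT2G39920.

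Scores fell from 4.54 to 0.73, with a median of 1.05. The last members inside were AT2G48060 at 0.74 and AT5G58900 and AT1G28150 at 0.73. The next probe sets, AT2G43530 at 0.72 and AT4G14230 and AT1G34380 at 0.71, were nearly as high, so the limit of 100 marks no gap. In 96 of the 100 all 4 shoot arrays of 6 and 12 h lay above all 6 of 0.5, 1 and 24 h, an arrangement found in 6.41% of the probe sets tested, though the rule itself asked for something close to it. The exceptions were AT2G22590, AT1G80320, AT1G48330 and AT3G22240. The difference between the mean of 6 and 12 h and the mean of 0.5, 1 and 24 h had a median of 1.79 on the log2 scale and ran from 0.88 to 5.27.

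The members span a wide range of levels. The brightest, AT1G13930, read 909/1067 at 0.5 h and 5530.0/6292 at 6 h. AT1G80320, by contrast, read 23.4/6.63 at 6 h and 23.2/7.81 at 12 h, so its second arrays of these times lay within the 1.06 to 9.90 of its low times. In 32 members all 12 shoot arrays reached a signal of 42. The members lay on all 5 chromosomes, 37 of the probe sets on chromosome 1, 15 on chromosome 2, 15 on chromosome 3, 19 on chromosome 4 and 14 on chromosome 5. The eligible probe sets were not counted by chromosome.

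**Figure D2:**
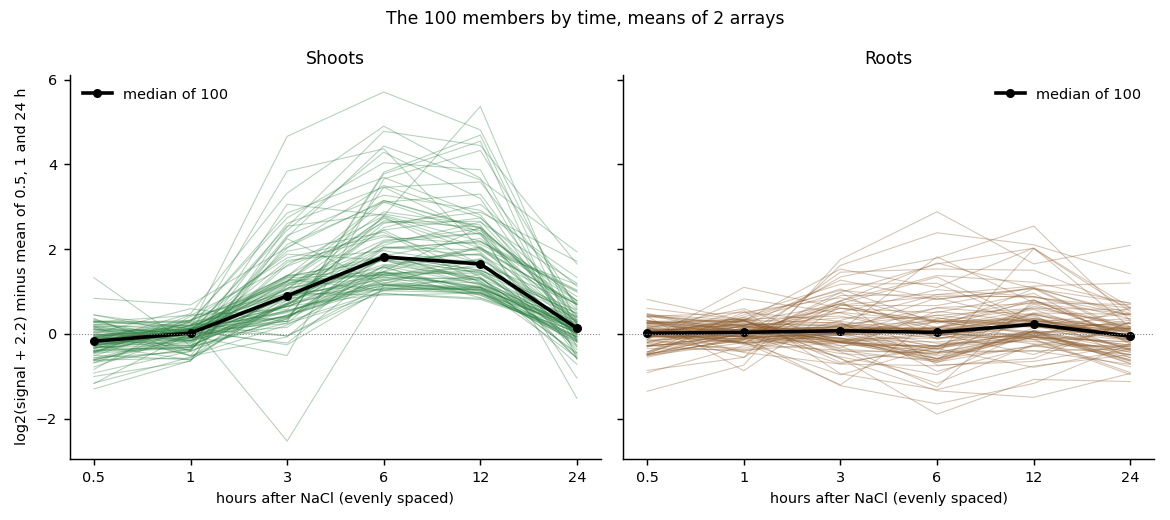
Mean log2(signal + 2.2) of the 2 arrays of each group, minus the member's own mean of 0.5, 1 and 24 h in the same tissue, against hours after NaCl, evenly spaced; each thin line is 1 of the 100 members and the black line their median. The shoot lines (left) rise to 6 and 12 h and come down by 24 h, as the rule requires, whereas the root lines (right) go both up and down and their median stays near 0.

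The shoot peak fell at 6 h in 62 members, at 12 h in 34 and at 3 h, a time the score left out, in 4 (AT3G03170, AT1G21670, AT5G37990 and AT5G58900). The 12 h mean minus the 6 h mean had a median of -0.15 on the log2 scale. It ranged from -2.37 for AT1G20030 to 2.59 for AT2G23910. AT1G20030 had signals of 241/159 at 3 h, 280.1/287 at 6 h, and 53.2/53.1 at 12 h, so it was an early member already far down by evening. AT2G23910 read 6.10 or less on every shoot array of 0.5, 1, 3 and 24 h, 29.0/20.5 at 6 h, and 147/169 at 12 h. These 2 genes mark the early and late ends of the group.

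The shoot values at 3 h were not used in the score. The mean of the 3 h arrays was above the mean of 0.5, 1 and 24 h in 93 of 100, against 49.7% of all probe sets tested, and the median difference was 0.90 on the log2 scale, against a median near 0 over all. Since the low arrays were those that the rule kept low, these are descriptions without a test. Both 3 h arrays lay above all 6 low arrays in 65 members, against 11.3% of the probe sets tested. The rise was at least 2-fold in 45, a count that was not made over all probe sets.

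Expressed as a share of the way from the low mean to the mean of 6 and 12 h, the 3 h position had a median of 51.1%. The median of 56.2% over all probe sets tested is not comparable. There the difference between these means, by which the position is divided, had a median of only 0.02 on the log2 scale. Among the members the position was under 25% in 16, which include the late genes AT4G33980, AT1G07050 and AT4G34950. It lay between 25 and 75% in 55 and over 75% in 29, of which 8 were past 100%. The highest, AT5G37990 at 184%, rests on 1 array, with 3 h signals of 5.24 and 63.5 against 8.62 or less at 6 h. AT3G22240 went the other way: it read 133/320 at 3 h against 976 to 1576 at 0.5, 1 and 24 h, and 3271/2206 at 6 h. Its 3 h arrays were thus the lowest of its shoot arrays, which placed it at -229%.

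**Figure D3:**
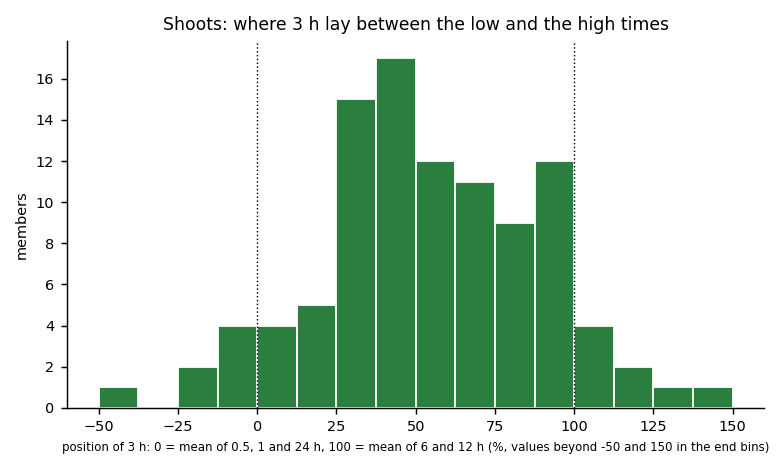
Number of members by the position of their 3 h shoot mean, in percent of the way from the mean of 0.5, 1 and 24 h (dotted line at 0) to the mean of 6 and 12 h (dotted line at 100), with values beyond the axis counted in the end bins. The members spread over the whole way, with a median of 51.1%.

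Measured against 0.5 h, the return by 24 h was incomplete in part of the group. The 24 h mean minus the 0.5 h mean had a median of 0.31 on the log2 scale, against -0.02 over all probe sets tested. It was positive in 66 members and negative in 34. In 23 members the 24 h level was still at least 2-fold above 0.5 h, and in 4 (AT4G32340, AT3G62550, AT3G48490 and AT1G48330) it was at least 2-fold below. The rule itself kept the 24 h level below those of 6 and 12 h. The data thus give no separate check of the label's return by the next morning. In these 23 the return was partial as measured against 0.5 h alone. For AT1G19370, 1 of them, the shoot arrays of 24 h (6.28/16.6) lay near those of 1 h (6.75/15.3). The same counts over all probe sets were not made.

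AT1G51090 had the largest such excess, 3.24 on the log2 scale: it read 8.73/1.14 at 0.5 h, 323/317 at 6 h, and 37.4/79.9 at 24 h. AT4G33985 read 0.712/1.33 at 0.5 h and 23.6/19.3 at 24 h, a difference of 2.88, against 46.2/37.5 at 6 h. For both genes the 2 arrays of 24 h lay above all 4 of 0.5 and 1 h and below all 4 of 6 and 12 h. AT4G30650 behaved likewise, with 30.0/20.8 at 0.5 h, 1427/1588 at 6 h, and 160.2/179 at 24 h, a difference of 2.66. On the other side, AT3G62550 read 432/507 at 0.5 h, 1997/2135 at 6 h, and 83.4/94.3 at 24 h, and AT4G32340 read 177/209 at 0.5 h, 987/936 at 6 h, and 33.9/37.4 at 24 h. Their next-morning arrays were below every array of 0.5 and 1 h.

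Several members are neighbours on their chromosome, and how often this holds among all eligible genes was not counted. In the order of protein-coding genes in the RefSeq table, AT1G21670 and AT1G21680, AT4G17100 and AT4G17140, AT4G30650 and AT4G30660, and AT4G33980 and AT4G33985 stand next to each other, and AT1G76590 and AT1G76620 have 2 genes between them. No pair's annotated spans overlap, and no member's probe set carries the suffix that marks probes shared between genes. AT4G30660 read 69.4/50.7 at 0.5 h, 619/573 at 3 h, 1085/1055 at 6 h, and 71.7/110.3 at 24 h. Its neighbour AT4G30650 had risen less by 3 h relative to its own 6 h level, with 369 and 266, and at 12 h it still read 1128/1257, while AT4G30660 had come down from its own 6 h level to 490.3/681. The 2 probe sets of AT4G17140 gave like results in roots at 6 h, with log2 differences of 0.08 and 0.07. A further probe set of this gene, which did not pass the signal filter, had a score of 0.25. For the member AT2G48060, another probe set that passed had a score of 0.18 and one that did not pass had -0.20, so the shoot pattern was not shared by all probe sets of these genes.

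The root arrays played no part in the score, though they counted towards the signal filter, and were tested. AT1G80320 and AT5G18540 reached 42 only on root arrays of 6 and 12 h, and AT2G22590 only on those of 12 and 24 h. The root calls of these genes are thus not independent of the filter. The reference was the mean of 0.5, 1 and 24 h in roots, matching the low times of the rule, and members were called where the adjusted p was under 0.05 and the change 2-fold or more in a limma fit over all 15170 probe sets that passed the signal filter. At 6 h, 12 of the 100 members were higher in roots, against 8.70% of all probe sets tested, and 5 were lower, against 8.02%, while 83 did not pass. The first count lies between 8, against 7.13% of all, and 14, against 7.82%, when the first or the second array of 6 h is left out, so it is not set apart from the background. Both 6 h arrays lay above all 6 reference arrays in 21 members, against 17.6% of all probe sets, and below them in 17, against 27.0%. At 12 h, 13 members were higher, against 2.55% of all, and 2 were lower, against 2.2%. The share higher at 12 h was thus above the background and the share lower near it, but both rest on 2 arrays that disagreed widely. Several of the higher calls were lost without the first or without the second of these arrays, as given below. Other members were called higher only with an array left out. The 6 and 12 h comparisons use the same reference arrays. The median root difference over members was 0.03 at 6 h, against -0.14 over all probe sets, and 0.23 at 12 h, against -0.05. Every member passed the signal filter by the rule, but only 83 of them reached 42 in at least 2 root arrays, 52 in all 12 and 14 in none.

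**Figure D4:**
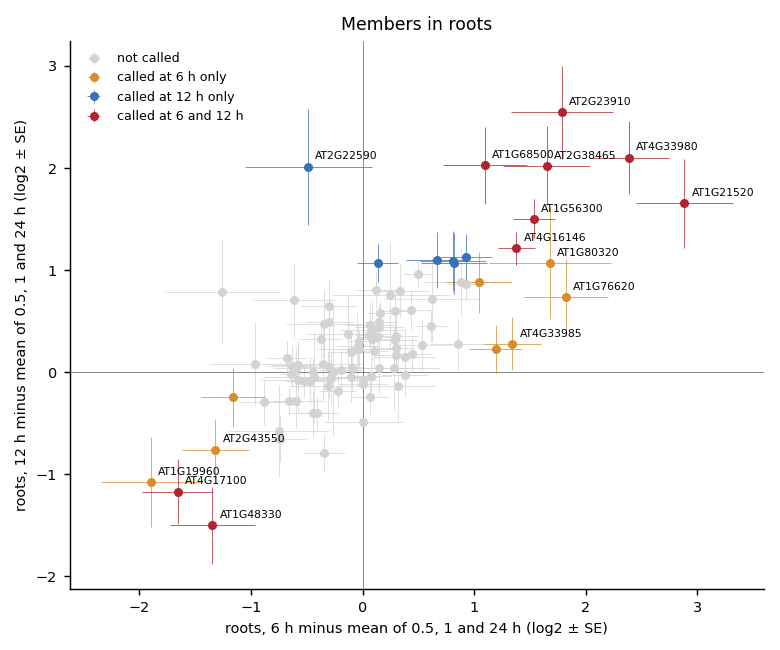
Log2 differences in roots at 6 h (x axis) and at 12 h (y axis) from the mean of 0.5, 1 and 24 h, 1 point per member with standard errors; colours mark members called at either or both times, and the axes share the reference arrays. AT4G33980, AT1G21520 and AT2G23910 lie far up on both axes, AT2G22590 only on the 12 h axis, and AT1G19960 far down on the 6 h axis.

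AT1G21520 had the largest root rise among members at 6 h. Its root signals were 37.2/35.2 at 0.5 h, 49.9/64.7 at 1 h, 284/382 at 3 h, 689/758 at 6 h, 765/122 at 12 h, and 456/381 at 24 h. All root arrays from 3 h on lay above those of 0.5 and 1 h, and both 6 h arrays lay above all 6 reference arrays. The 6 h difference was 2.88 ± 0.43 (adjusted p = 8.93e-05) and that at 12 h 1.65 ± 0.43 (0.0158), the latter down to 0.34 (adjusted p = 0.48) without the first 12 h array and up to 2.96 without the second. Fitted on root arrays alone, the 12 h rise had an adjusted p of 0.0767. In shoots the gene was faint throughout, with 37.8/21.5 at 6 h against 4.60 to 10.9 at 0.5, 1 and 24 h.

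AT4G33980 read 19.0/11.8 at 0.5 h in roots, 18.0/20.3 at 1 h, 108/81.4 at 3 h, 171/153 at 6 h, 218/80.1 at 12 h, and 79.1/83.9 at 24 h. Both 6 h arrays lay above all reference arrays, and the rise was 2.39 ± 0.36 at 6 h (adjusted p = 8.8e-05) and 2.1 ± 0.36 at 12 h (0.00125), the latter 1.39 (adjusted p = 0.026) without the first 12 h array. In roots it had risen by 3 h and was still high at 24 h, while in shoots it was near 0 at both times. The gene next to it, AT4G33985, read 290.2 and 182 in roots at 6 h against 60.4 to 125 at 0.5, 1 and 24 h, a rise of 1.34 ± 0.26 (adjusted p = 0.000623). At 12 h its root arrays, 171 and 68.8, overlapped that range.

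AT2G23910 read 119 and 77.0 in roots at 6 h and 75.6/351 at 12 h, against 16.9 to 41.4 on the reference arrays. The differences were 1.79 ± 0.46 (adjusted p = 0.00461) and 2.55 ± 0.46 (0.00182), and the first of them missed the threshold without the first 6 h array (1.48, adjusted p = 0.0789). The second was 1.45 (adjusted p = 0.019) without the second 12 h array. AT2G38465 read 46.3/59.4 at 6 h and 43.2/108 at 12 h against 9.16 to 28.0 on the reference arrays, with differences of 1.65 ± 0.39 (adjusted p = 0.00269) and 2.02 ± 0.39 (0.00277). For both genes every root array of 6 and 12 h lay above all 6 reference arrays, as the shoot arrays of these times did.

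AT1G56300 and AT4G16146, both among the 4 highest scores, rose less in roots than in shoots. AT1G56300 read 131/122 at 6 h and 123/125 at 12 h in roots against 28.5 to 68.1 on the reference arrays, with a 6 h difference of 1.53 ± 0.19 (adjusted p = 1.96e-05). AT4G16146 read 90.5/73.4 at 6 h and 63.7/82.7 at 12 h against 17.1 to 53.3, with a 6 h difference of 1.38 ± 0.16 (adjusted p = 1.36e-05). In each the root arrays of 6 and 12 h stood clear of the reference arrays, but the 24 h arrays stayed above those of 0.5 and 1 h. The size of the rise was not compared between tissues by a test, because the rule chose the shoot rise. The 12 h calls of AT4G16146 (1.22), AT4G34950, AT1G11210, AT1G32090 and AT4G17100 were under 2-fold with a pseudocount of 16, which weighs low signals less.

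The remaining members called higher at 6 h were AT1G76620, AT1G80320, AT5G01200, AT1G68500 and AT5G18540. AT1G76620 read 57.6/18.4 at 6 h against 4.18 to 14.2, a rise of 1.82 ± 0.37 (adjusted p = 0.000973) that fell to 1.05 (0.0643) without the first 6 h array. AT1G80320, with a rise of 1.68 ± 0.55 (adjusted p = 0.0187), missed the threshold without either 6 h array (0.0866 and 0.112) or with 0.5 h as the reference (0.0563). AT5G18540 did too (0.0506 and 0.0789), and fell under 2-fold without the first array of 1 h or the second of 24 h (0.97 and 0.99). AT1G68500 was not called without the first array of 6 h (0.47, adjusted p = 0.454) or of 1 h (1.0, 0.0516), or with root arrays alone in the fit (0.0922), and its difference was 1.72 without the second array of 6 h. The calls of AT5G01200 and AT5G18540 at 6 h, named here after their values were seen, had differences of 1.19 and 1.04, and with a pseudocount of 16 they and AT1G68500 were under 2-fold.

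Among the 12 h calls, AT1G68500 read 112 and 414 against 36.2 to 78.4 on the reference arrays, a difference of 2.03 ± 0.38 (adjusted p = 0.00229) that came to 1.09 (0.0241) without the second array. AT2G22590 read 44.2/393 at 12 h, where its first array lay within the reference range of 20.4 to 49.3. Its difference of 2.01 ± 0.57 (adjusted p = 0.0237) rested on the second array, and without it came to 0.47 (0.474) and without the first to 3.56. With root arrays alone in the fit its adjusted p was 0.0765. The calls of AT4G34950 (1.1), AT1G11210 (1.09) and AT1G32090 (1.07), the highest-scoring member among them being AT1G11210, were likewise lost without the second 12 h array (1.0, 0.72 and 0.69). Those of AT2G21130 (1.13) and AT2G47890 (1.07) were lost without the first (0.67 and 0.79, adjusted p = 0.0798 and 0.182). AT2G47890 was also under 2-fold without the first array of 0.5 h (0.96), and AT1G11210 without the first of 24 h (0.99). With either 12 h array left out, larger shares of all probe sets were called higher and lower than with both.

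AT1G11210, the member that rose most in shoots, was already above its shoot morning level in roots at 0.5 h, with 20.2 and 24.9, and read 54.4/61.5 at 6 h and 54.0/91.5 at 12 h. Its root arrays of 1 h, 47.1 and 39.1, and of 24 h, 27.3 and 41.5, left little room between reference and peak. AT2G21130 read 96.4/120 at 0.5 h in roots, 336/456 at 6 h, and 446/504 at 24 h, so that its root level had not come down on the next morning as its shoot level had, from 485/489 at 6 h to 59.4/71.7 at 24 h.

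Other members of the 20 highest scores were called at neither time in roots. AT5G39410 read 41.6/27.5 at 0.5 h in shoots, 258/278 at 6 h and 283/262 at 12 h, while in roots it read 115/108, 178/133 and 208/216 at these times. Its root differences, 0.50 at 6 h and 0.96 at 12 h, were under 2-fold. AT4G14270 was brighter in roots than in shoots at 0.5 h, with 639/503 against 155/113, and at 6 h this order was turned, with 471/574 in roots and 963/842 in shoots. The root difference at 6 h was 0.15 ± 0.22, which did not pass the test. AT1G19370 read 28.6 to 55.8 on all root arrays, whereas its shoot arrays went from 2.17/4.10 at 0.5 h to 55.4/60 at 6 h. AT1G64890, AT2G15830 and AT4G33490 had root differences at 6 h of -0.09, 0.44 and 0.44.

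The 5 members lower in roots at 6 h were AT1G19960, AT4G17100, AT1G48330, AT2G43550 and AT1G68220. AT1G19960 read 827/709 at 0.5 h in roots, 527/555 at 1 h, 312/273 at 3 h, 103/129 at 6 h, 187/225 at 12 h, and 208/188 at 24 h. Its 6 h arrays were the lowest of all 12 root arrays, and the difference was -1.90 ± 0.44 (adjusted p = 0.0025). In shoots the same gene read 57.0/63.4 at 0.5 h, 575/390 at 6 h, 118/771 at 12 h, and 28.4/42.9 at 24 h. Roots thus had the higher signal at 0.5 h and shoots at 6 h.

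AT4G17100 read 48.1/28.2 at 6 h in roots and 29.7/91.4 at 12 h, against 80.9 to 166 on the reference arrays. It fell by 1.66 ± 0.32 at 6 h (adjusted p = 0.000604) and by 1.17 ± 0.32 at 12 h (0.0195), and the 12 h call was lost without the first array there (-0.39, adjusted p = 0.426, against -1.95 without the second), with a pseudocount of 16 (-0.97) and with root arrays alone in the fit (0.0918). Its shoot signals went the other way, from 57.8/60.5 at 0.5 h to 397/448 at 6 h. AT4G17140, the neighbouring member, had a root difference at 6 h of 0.08 ± 0.16, against -1.66 for AT4G17100, although both rose in shoots. AT1G48330 read 25.4 and 19.9 in roots at 6 h and 15.4/25.8 at 12 h against 26.5 to 101.1 on the reference arrays. Its calls, -1.35 ± 0.38 (adjusted p = 0.00802) and -1.50 ± 0.38 (0.013), missed the threshold without the second 6 h array (0.086) and without the first 12 h array (0.122).

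AT2G43550 and AT1G68220 fell by 1.32 ± 0.30 (adjusted p = 0.00196) and 1.16 ± 0.29 (0.00379) in roots at 6 h. AT2G43550 was dim there, 7.69/7.52 at 6 h against 12.8 to 36.6 on the reference arrays, and with a pseudocount of 16 its difference was -0.72. AT1G68220 read 90.5 and 104 against 127 to 321, and without the first 6 h array its adjusted p was 0.0519. The summed signal of the 4 shoot markers in roots was 92.5 to 114.0 at 6 h, below its 152 to 222 at 0.5 and 1 h and 345 to 432 at 24 h, and it was 7362 or more in every shoot array. Its part in the root decreases was not tested.

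The same score computed on root arrays was above 0 in 30 of the 100 members, against 10.3% of all probe sets tested. Without the first root array of 12 h the count was 22 against 5.70%, and without the second 33 against 18.9%. The root peak fell at 12 h in 31 members, where 12.1% of all probe sets peaked, and at 6 h in 17, against 20.6%. The correlation of root and shoot group means over the 6 times had a median of 0.26 over members and 0.16 over all probe sets, given as a description over 6 times sampled together.

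Between tissues, 3 h was the only time the rule used in neither. There 28 members were higher in roots, against 24.8% of all probe sets tested, 28 were lower, against 20.7%, and 44 did not pass. Of the 28 lower members, 11 reached the filter's signal limit on no root array and passed it through shoot arrays alone. Of the higher members, AT1G21520, AT5G63990, AT5G18540, AT1G01640, AT1G53710, AT1G80320 and AT5G65530 reached it on no shoot array. AT3G04010 and AT5G37990 reached it on 1 shoot array each, so these too passed only through root arrays. The calls of all these members are thus not independent of the filter, and the share of such probe sets among all was not counted. Neither the higher nor the lower share is therefore read against the background. The median difference, 0.23, lay near the 0.15 of all probe sets.

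Highest in roots over shoots at 3 h were AT4G33980, by 4.54 ± 0.44 (adjusted p = 1.09e-07), AT1G21520, by 4.51 ± 0.53 (1.13e-06), AT4G33985, by 3.66 ± 0.32 (2.9e-08), and AT2G23910, by 3.66 ± 0.56 (2.25e-05). At that time AT4G33980 read 108 and 81.4 in roots and 0.374 and 4.46 in shoots, and AT2G23910 read 79.8 and 61.3 in roots and 1.75 and 6.10 in shoots. AT4G33985 read 150/146 in roots and 7.47/12.4 in shoots, but its root arrays were already far above its shoot arrays at 0.5 h, with 65.3/60.4 against 0.712/1.33. With a pseudocount of 16 the difference was 2.59 for AT4G33980 and 2.12 for AT2G23910. AT1G21520 passed the signal filter through root arrays alone, so its call is not independent of the filter.

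Lowest in roots were AT3G62550, by -7.17 ± 0.55 (adjusted p = 6.68e-09), AT1G68600, by -6.18 ± 0.27 (6.66e-12), AT4G32340, by -5.72 ± 0.43 (4.52e-09), and AT2G39920, by -4.31 ± 0.33 (7.13e-09). AT3G62550 read 1332 and 976 in shoots at 3 h and no more than 16.5 on any root array. AT1G68600 read 205/244 in shoots at 3 h, 461/413 at 6 h, 663/612 at 12 h, and at most 7.12 in roots. AT2G39920 read 68.8 and 41.1 in shoots at 3 h, 185/209 at 6 h, and at most 6.24 in roots. All 4 passed the signal filter through shoot arrays alone, and with root signals this low the size and order of their differences rest on the pseudocount: with 16 in its place that of AT1G68600 was -3.82 and that of AT2G39920 -2.07.

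**Figure D5:**
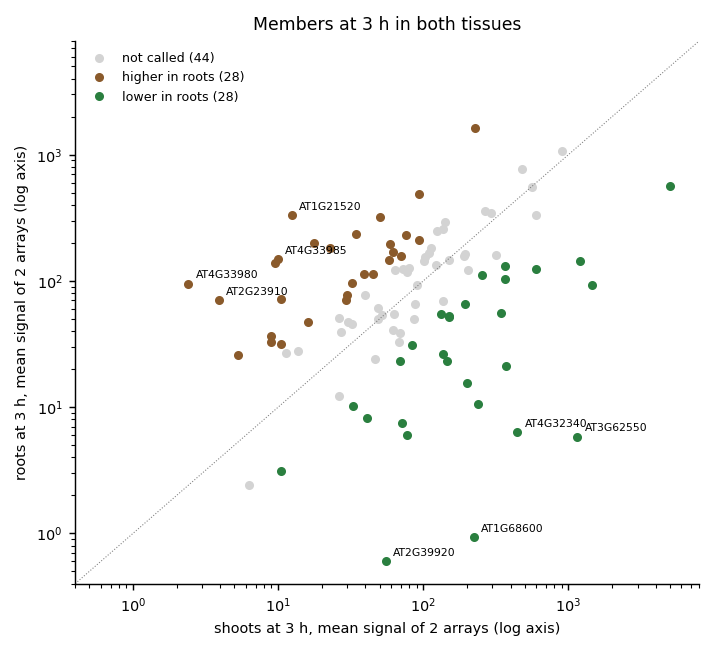
Mean signal of the 2 arrays of roots (y axis) against that of shoots (x axis) at 3 h for the 100 members, both on log axes, with a dotted line of equal signal. Members called higher in roots (28, brown) and lower in roots (28, green) lie on both sides of the line, with AT4G33980 at the left edge and AT2G39920 and AT1G68600 at the bottom.

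Genes of known function with the same shoot course were looked for on lists of clock, starch, sugar, salt and other genes, which were written with earlier results of these data known. On these lists 19 genes that are no members were measured. In shoots 7 of them were called higher in the mean of 6 and 12 h than in the mean of 0.5, 1 and 24 h. The share over all probe sets tested was 4.34%. Another 1 was called lower, against 2.81%. Since the lists were written with earlier results known, these shares are a description. Only a few genes of each list had a probe set with a single named gene in the table used.

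On the evening clock list, 3 of 15 genes were measured. AT4G33980 is the member among them and is not counted. GI, which acts in the evening part of the clock and in flowering, was higher by 1.77 ± 0.13 (adjusted p = 3.89e-08), with mean shoot signals of 60.8 ± 10.5 (SD, n = 2) at 0.5 h, 451 ± 64.9 at 6 h and 88.4 ± 21.5 at 12 h. At 1 h its mean was 84.1, close to that of 12 h. COR27, a cold-induced regulator that the clock drives in the evening, was higher by 4.69 ± 0.30 (adjusted p = 7e-09), and its mean shoot signals were 2.86 or less at 0.5, 1, 3 and 24 h, 51.3 at 6 h and 147 at 12 h. That is the late course of the members AT4G33980 and AT2G23910. In roots at 6 h COR27 was higher by 3.18 ± 0.38 (adjusted p = 1.62e-05), and GI was not called there (0.10 ± 0.17). On the morning clock list 2 of 19 genes were measured: AT1G69570 was lower in shoots, with a difference of -1.71 ± 0.18 (adjusted p = 1.66e-06) and AT5G52660 was not called (0.15 ± 0.09).

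Both measured genes of starch breakdown were higher. PWD, which phosphorylates starch at the start of its breakdown, was higher by 2.46 ± 0.11 (adjusted p = 1.55e-10), with mean shoot signals of 129 at 0.5 h, 885 at 6 h, 1141 at 12 h and 290 at 24 h. DPE1, which works on the short glucans released from starch, was higher by 2.50 ± 0.12 (adjusted p = 2.47e-10). Neither was called in roots at 6 h. All 3 measured genes of the abscisic acid and salt list were higher, COR15B by 4.38 ± 0.25 (adjusted p = 1.47e-09), COR15A by 4.0 ± 0.51 (1.71e-05), both protective proteins of the chloroplast, and the dehydrin COR47 by 1.62 ± 0.20 (9.76e-06). Their courses differed at 24 h. COR15B came down to a mean shoot signal of 305 ± 185 (SD, n = 2) from 1853 ± 183 at 6 h, whereas COR15A was at 2600.0 ± 964 against 3523 ± 249.8, and COR47 at 2928 ± 537 against 2617 ± 109. COR15A and COR47 thus do not have the members' course. The 1 measured gene of sugar starvation, AKINBETA1, the 1 of flavonoids and the 3 of light harvesting were not called, nor were the 5 heat shock genes.

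Of 1178 probe sets with a gene symbol that passed the signal filter, 17 (1.44%) reached the lowest score of the members, the same share that the members make up of their own candidates. COR27 had the highest score of them at 3.51, between the members AT4G16146 and AT1G56300, followed by DPE1 at 2.15, COR15B at 2.1, LCR69 at 2.06, PDC2 at 1.79 and CHL at 1.74. GI is not among them, since its 12 h level had come down.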

How the data were processed

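RNA of roots and shoots was measured on 24 arrays, 2 in each of 12 groups taken from the labels. The authors deposited 1 linear intensity (signal) value for each probe set and array, and the submitters' processing notes name MAS5, with no version. The deposited scaling was kept, 64 control probe sets were left out, and probe sets with a signal of at least 42 in 2 or more arrays were kept, 15170 in all. Of all probe sets, 13513 had 1 gene, 503 several and 8794 none in the gene table, and 13436 were matched to RefSeq by gene identifier. Differences are of log2(signal + 2.2) values, so changes of dim genes come out too small.

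One fit with a mean for each group was made over all arrays with limma 3.58.1 (lmFit, eBayes with a trend) in R 4.3.3, with 12 residual and 4.15 prior degrees of freedom. Tests were two-sided and adjusted by Benjamini-Hochberg over all probe sets kept. Calls were made at an adjusted p under 0.05 with a change of 2-fold or more. Tests were made in roots at 6 and 12 h, between tissues at 3 h, and in shoots for listed genes that are no members. The fitting code was tested on simulated data. The number of arrays limits the precision, and read depth does not apply to arrays. Figures were drawn with matplotlib 3.10.9 in Python 3.11.15.

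The members, gene lists and tests were chosen with earlier results of these data known. Named were the 20 highest scores, those beside the limit, the 6 highest and lowest root calls at each time, the 4 highest and lowest tissue differences, and called genes of the lists. Other members named were picked after their values were seen. Alternatives were other pseudocounts, scalings, filters, references, arrays and a replicate block. Promoter sequences were not analysed here.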

Additional observations from a re-analysis of the deposited data

Results flagged for a closer look

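In 16 members both root arrays of 6 h lay below all 6 root arrays of 0.5, 1 and 24 h, while all 4 shoot arrays of 6 and 12 h lay above all 6 shoot arrays of these times. Of these, 4 were called lower in roots at 6 h, with log2 differences of -1.90 for AT1G19960, -1.66 for AT4G17100, -1.32 for AT2G43550 and -1.16 for AT1G68220. The opposite direction in the 2 tissues was not tested as a difference, since the rule chose the members by their shoot values. Over all probe sets tested, both root arrays of 6 h lay below the reference arrays in 27.0%, and in 17 of the 100 members. Called lower in roots at 6 h were 8.02% of all probe sets and 5 of the 100 members. Neither was thus commoner among the members than over all probe sets.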

How the results depend on the processing

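No called member changed direction under any alternative run. Against 0.5 h alone the root rise at 12 h was 3.01 for AT1G21520 and 2.05 for AT2G21130. Without the 2-fold limit, 21 members were higher and 16 lower in roots at 6 h (18.6% and 30.7% of all probe sets). At 12 h 22 were higher (6.16%) and 3 lower (11%). Of the listed genes 3 were lower in shoots, against 13.6% of all probe sets. With a pseudocount of 16, 1 member was lower in roots at 12 h (1.21% of all probe sets). Median centring or quantile scaling gave 2 lower listed genes in shoots (3.18% or 2.73% of all probe sets). Leaving out each array in turn leaves a group with 1 array. Beyond the range given above for 6 h in roots, counts of calls from such fits are not given. The replicate numbers do not pair the arrays: same-numbered arrays deviated together with r from -0.26 to 0.23 over 15 pairs of root groups, -0.06 to 0.13 over 15 of shoot groups and -0.11 to 0.12 over 36 across tissues. With a replicate block 12 members were higher and 6 lower in roots at 6 h (8.69% and 8.04% of all probe sets). At 12 h these counts were 14 and 2 (2.55% and 2.17%), and between tissues 27 and 28 (24.8% and 20.7%). Of the listed genes 7 were higher and 1 lower in shoots (4.34% and 2.81%). Scaling moved the median root difference at 6 h over all probe sets from -0.14 to -0.06 with median centring, and the tissue median from 0.15 to 0.00. Of the 100 members, 90 stayed in the top 100 with a pseudocount of 16, 96 with median centring, and 85 to 97 with 1 shoot array left out. Signals near background, as in many members in roots, limit the differences that can be seen.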
